A study of Mus musculus with 12 samples.

Results

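A set of 10 genes was followed in mouse aortic smooth muscle cells (SMCs), namely 3 NADPH oxidase genes (*Nox4*, *Cybb*, and *Cyba*) and 7 genes of antioxidant enzymes (*Sod1*, *Sod2*, *Sod3*, *Cat*, *Gpx3*, *Hmox1*, and *Nqo1*). They are 10 of 52636 genes in the deposited table and were chosen by name and function, with earlier results of these data known. All passed the filter on low counts that left 22320 genes for testing. The SMCs were sorted from male C57BL/6J mice at 12 weeks of age, 3 of each of 2 lines. GFPiSMC mice carried a tamoxifen-inducible Cre under the *Myh11* promoter together with the mT/mG reporter, which turns on GFP where Cre has acted. Tgfbr1/2iSMCKO mice carried the same transgenes and floxed alleles of both TGF-β receptor genes, *Tgfbr1* and *Tgfbr2*. Tamoxifen (2 mg/d over 5 days) was started in both lines when the mice were 11 weeks old, and viable GFP-positive cells were collected after enzymatic digestion, one library from the ascending aorta with the arch and one from the descending thoracic aorta of each mouse. This gave 12 libraries in 4 groups of 3. The line and the deletion go together, so a difference of the lines and an effect of the lost receptors cannot be told apart.

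NADPH oxidases pass electrons from NADPH to oxygen. *Nox4* encodes an oxidase that is active as soon as it is made and releases mainly hydrogen peroxide, and it is the main family member of vascular SMCs. *Cybb* encodes NOX2, the superoxide-producing oxidase of phagocytes, and *Cyba* encodes p22phox, the membrane subunit that both need. Superoxide is turned into hydrogen peroxide by superoxide dismutases, which sit in the cytosol (*Sod1*), in mitochondria (*Sod2*), and outside the cell (*Sod3*), where the enzyme binds to the matrix of the vessel wall. Catalase (*Cat*) and glutathione peroxidase 3 (*Gpx3*, a secreted enzyme) remove peroxide, while heme oxygenase 1 (*Hmox1*) and the quinone reductase *Nqo1* are known targets of the stress-responsive factor NRF2. *Nox4* is a known TGF-β target gene in mesenchymal cells.

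Total counts ranged from 20467027 to 31392396 per library, from 9208 to 20000 sorted cells. Levels are given as CPM, counts per 1000000 after TMM scaling, and 3 counts in a library corresponded to 0.0966 to 0.146 CPM. The 8 smooth muscle markers summed to 33927 to 47855 CPM in every library, against 55.6 to 109 CPM for 8 endothelial, 8.76 to 30.4 CPM for 14 macrophage, and 0.675 to 1.53 CPM for 6 adipocyte markers. Fibroblast markers (8 genes) summed to 74.3 to 228 CPM in the ascending and 16.2 to 39.9 CPM in the descending libraries, and 5 red blood cell genes reached 101 CPM in 1 library (GFPiSMC descending replicate 3). Of the deleted genes, neither *Tgfbr1* (log2 fold change 0.10, SE 0.12, adjusted p = 0.79) nor *Tgfbr2* (−0.26, SE 0.11, adjusted p = 0.233) differed past the threshold by edgeR, but these counts cover whole genes and so do not measure recombination of the floxed exons. Of 11 TGF-β response genes, 4 were lower in Tgfbr1/2iSMCKO SMCs (against 3.23% of all genes tested), *Ccn2*, *Pmepa1*, and *Cdkn2b* among them, and the others did not pass. The list summed to 5356 to 9130 CPM in GFPiSMC and 1126 to 1383 CPM in Tgfbr1/2iSMCKO libraries. Most of this drop was *Ccn2*, at 3923 to 7387 and 28.1 to 208 CPM. *Tgfb1i1*, at 780 to 945 CPM in Tgfbr1/2iSMCKO libraries (log2 fold change 0.05, SE 0.07), made up most of the rest.

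Between genotypes, an oxidase gene and the gene of the extracellular dismutase fell. *Nox4* was 4.49-fold and *Sod3* 2.31-fold lower in Tgfbr1/2iSMCKO than in GFPiSMC SMCs, while the other 8 genes had log2 fold changes from −0.47 to 0.56 with adjusted p values from 0.098 to 0.996 (edgeR, 6 libraries against 6, segment as a covariate). The threshold was an adjusted p under 0.05 over the 22320 genes. By it 2 of the 10 genes changed, against 5.03% of all genes tested, and both were lower, against 3.23% of all genes lower. With a change of more than 2-fold required as well, the same genes passed, against 2.67% of all genes tested. In this fit both libraries of a mouse count separately. With counts summed per mouse only *Nox4* passed the adjusted p threshold, against 1.86% of all genes. The 10 genes were chosen with earlier results of these data known, so these shares describe the set and do not test it.

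**Figure D1:**
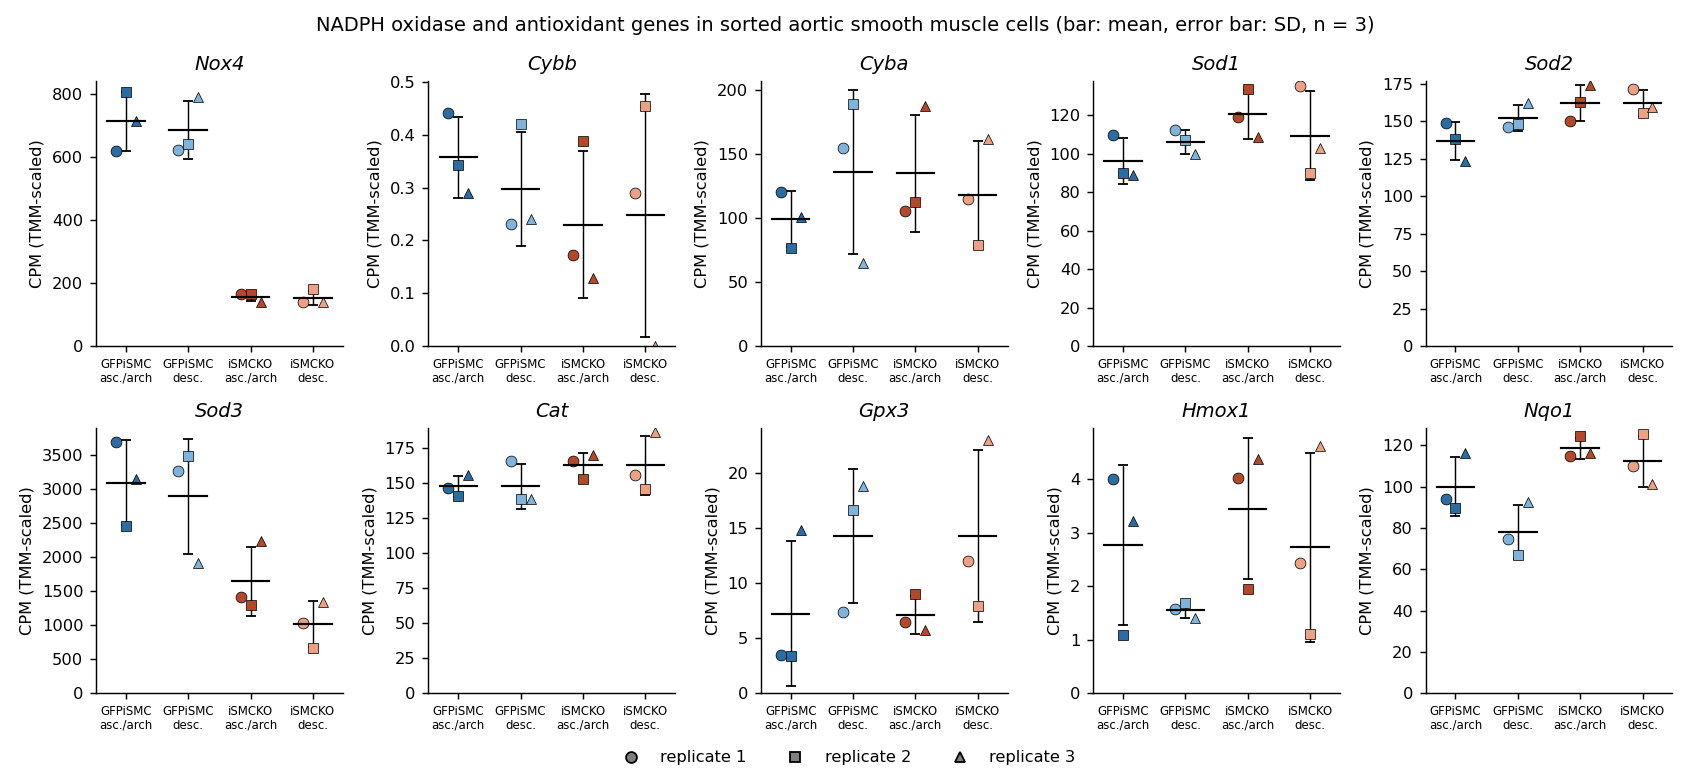
Level of each of the 10 genes (CPM, vertical axes starting at 0 and differing between panels) in the 12 libraries, by group on the horizontal axis, with symbols for replicates, a bar for the mean, and an error bar for the SD (n = 3). *Nox4* lies at 140 to 180 CPM in the 6 Tgfbr1/2iSMCKO libraries and at 617 to 806 CPM in the 6 GFPiSMC libraries, and *Sod3* is lower in Tgfbr1/2iSMCKO SMCs with 1 library of each genotype out of order.

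*Nox4* (ENSMUSG00000030562.17; GRCm38 chromosome 7, 87246096 to 87398710, plus strand) is shown first with the bases before its start, because it is a TGF-β target gene and fell the most of the set. The 250 bases before the RefSeq start of *Nox4*, at chr7:87246399-87246648 (GRCm38.p6, plus strand), are given 5′ to 3′ from the RefSeq promoter table, with the CAGACA motif of Smad factors in capitals (read on the opposite strand as TGTCTG). In GENCODE M21 this stretch starts 303 bases after the annotated start of the gene, lies behind 1 annotated exon, and holds 0 exonic bases.
Nox4: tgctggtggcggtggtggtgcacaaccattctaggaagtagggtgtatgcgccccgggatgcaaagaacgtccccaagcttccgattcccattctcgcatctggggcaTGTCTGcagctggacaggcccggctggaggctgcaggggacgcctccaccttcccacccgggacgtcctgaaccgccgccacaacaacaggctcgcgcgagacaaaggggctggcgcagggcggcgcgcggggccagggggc
The motif begins 142 bases before the start. CAGACA or its reverse complement was found in 17.1% of 32851 upstream stretches of this length, and in 1 of the 8 that the promoter table holds for the set. The longer CAGA box AGCCAGACA, which contains it, was found on either strand in 0.301% of all stretches and in 0 of the 8. The core of the antioxidant response element, TGACNNNGC, was found on either strand in 10.2% of all and in 1 of the 8, that of *Sod1*. A match of letters does not show a binding site. *Sod3* and *Hmox1* were not among the 8.

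In ascending GFPiSMC libraries, *Nox4* was at 617, 806, and 715 CPM (replicates 1 to 3), and in descending libraries it was at 623, 642, and 790 CPM. In Tgfbr1/2iSMCKO SMCs it was at 166, 166, and 141 CPM in the ascending and at 140, 180, and 141 CPM in the descending segment. The lowest GFPiSMC library lay far above the highest Tgfbr1/2iSMCKO library, so that the genotypes did not overlap, which held for 2.89% of all genes in this direction. The group means were 713 ± 94.1 and 685 ± 91.5 CPM in GFPiSMC and 158 ± 14.1 and 154 ± 22.8 CPM in Tgfbr1/2iSMCKO libraries, ascending before descending (mean ± SD, n = 3). The log2 fold change over both segments was −2.17 (SE 0.11, edgeR adjusted p = 7.33e-08).

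*Nox4* fell in each segment. In the ascending aorta the change was −2.18 on the log2 scale (SE 0.16, adjusted p = 2.27e-05) and in the descending aorta it was −2.16 (SE 0.16, adjusted p = 2.24e-05), and the difference of these effects was 0.02 (SE 0.22, edgeR adjusted p = 1). Within a genotype, the descending libraries differed from the ascending by −0.06 (SE 0.16) in GFPiSMC and by −0.04 (SE 0.16) in Tgfbr1/2iSMCKO SMCs, neither past the threshold. With the counts of each mouse summed, 3 mice against 3, the log2 fold change was −2.15 (edgeR adjusted p = 0.000241). Fewer cells with *Nox4* transcripts and less of them per cell cannot be told apart in bulk libraries.

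*Sod3* (ENSMUSG00000072941.5; chromosome 5, 52363791 to 52371418) encodes extracellular superoxide dismutase and was, per kilobase of exon, the most abundant of the 10 genes in every library. In GFPiSMC SMCs it was at 3681, 2449, and 3142 CPM in the ascending and at 3267, 3480, and 1917 CPM in the descending segment. In Tgfbr1/2iSMCKO SMCs it was at 1413, 1298, and 2227 CPM in the ascending and at 1032, 670, and 1338 CPM in the descending segment. Within each segment all 3 Tgfbr1/2iSMCKO libraries lay below the 3 GFPiSMC libraries, as did 10.1% of all genes in the ascending and 7.75% in the descending aorta. Over both segments 1 Tgfbr1/2iSMCKO library (ascending replicate 3) lay above 1 GFPiSMC library (descending replicate 3).

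The log2 fold change of *Sod3* was −1.21 (SE 0.22, edgeR adjusted p = 0.00466). In the descending aorta it was −1.51 (SE 0.30, adjusted p = 0.0249), and in the ascending aorta it was −0.91 (SE 0.30, adjusted p = 0.213), which did not pass. The difference between the segments, −0.60 (SE 0.42, edgeR adjusted p = 1), was not past the threshold either. Of the 10 genes, 1 changed in the ascending aorta (*Nox4*, against 1.41% of all genes) and 2 changed in the descending aorta (*Nox4* and *Sod3*, against 1.72%). The descending *Sod3* call was lost in 5 of 16 alternatives (adjusted p up to 0.15), namely with only the 6 libraries compared and without GFPiSMC replicate 1 or 2 or Tgfbr1/2iSMCKO replicate 1 or 2. With counts summed per mouse, where 1.86% of all genes passed, the *Sod3* call was lost (−1.15, edgeR adjusted p = 0.0558), as it was without Tgfbr1/2iSMCKO replicate 1 (−1.16, adjusted p = 0.0501).

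**Figure D2:**
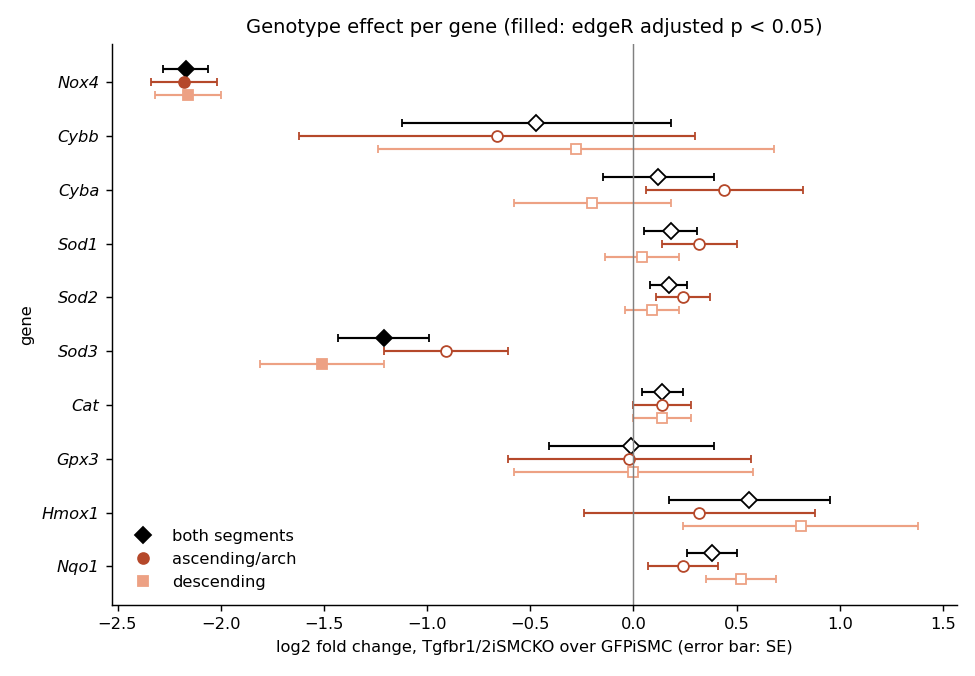
Log2 fold change of each gene between Tgfbr1/2iSMCKO and GFPiSMC SMCs (horizontal axis, error bar: SE) over both segments, in the ascending aorta with the arch, and in the descending aorta, with filled symbols for an edgeR adjusted p under 0.05. *Nox4* lies near −2.2 in all 3 comparisons, *Sod3* is filled over both segments and in the descending aorta, and the other 8 genes are open.

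The spread of *Sod3* within groups went with the base composition of the libraries. For each library a GC gradient was taken as the median log2 CPM of the most GC-rich of 5 equal classes of 8814 protein-coding genes minus that of the least GC-rich class, and it ran from −1.46 to −0.52 in GFPiSMC and from −1.59 to −0.48 in Tgfbr1/2iSMCKO libraries. After removal of group means, *Sod3* followed this gradient over the 12 libraries with Pearson's r of 0.983 (Spearman's rho 0.965; r of 0.97 without the 2 libraries farthest from the median). *Cyba* did so with r of 0.954 (rho 0.923; 0.961 without 2), and *Nox4* ran the other way with r of −0.89 (rho −0.825; −0.79 without 2). The transcript of *Cyba* is 59.3% GC, that of *Sod3* 52.7%, and that of *Nox4* 37.9%. The 10 genes did not fall in order of GC content, since *Gpx3* (56.0% GC) had r of 0.17, and *Sod2* (42.2% GC) had r of 0.164. The 12 points come in pairs from 6 mice, and gene and gradient share the library and its depth, so these values are a description without a p.

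With the gradient as a covariate, the log2 fold change of *Sod3* was −1.33 (SE 0.06, edgeR adjusted p = 2.04e-08), and with it in the fit of counts summed per mouse it was −1.30 (adjusted p = 4.27e-05), where 5.51% of all genes passed. In the ascending aorta *Sod3* then passed as well (−1.23, SE 0.07, edgeR adjusted p = 4.42e-06). With the trend over GC content taken out of each library, *Sod3* was at 2115 to 3575 CPM in GFPiSMC and at 820 to 1824 CPM in Tgfbr1/2iSMCKO SMCs, without overlap. These fits were chosen after the data were seen, and the covariate raised the share of all genes that passed from 5.03% to 10.5%. *Nox4* without the trend was at 618 to 727 CPM and at 145 to 163 CPM, respectively.

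**Figure D3:**
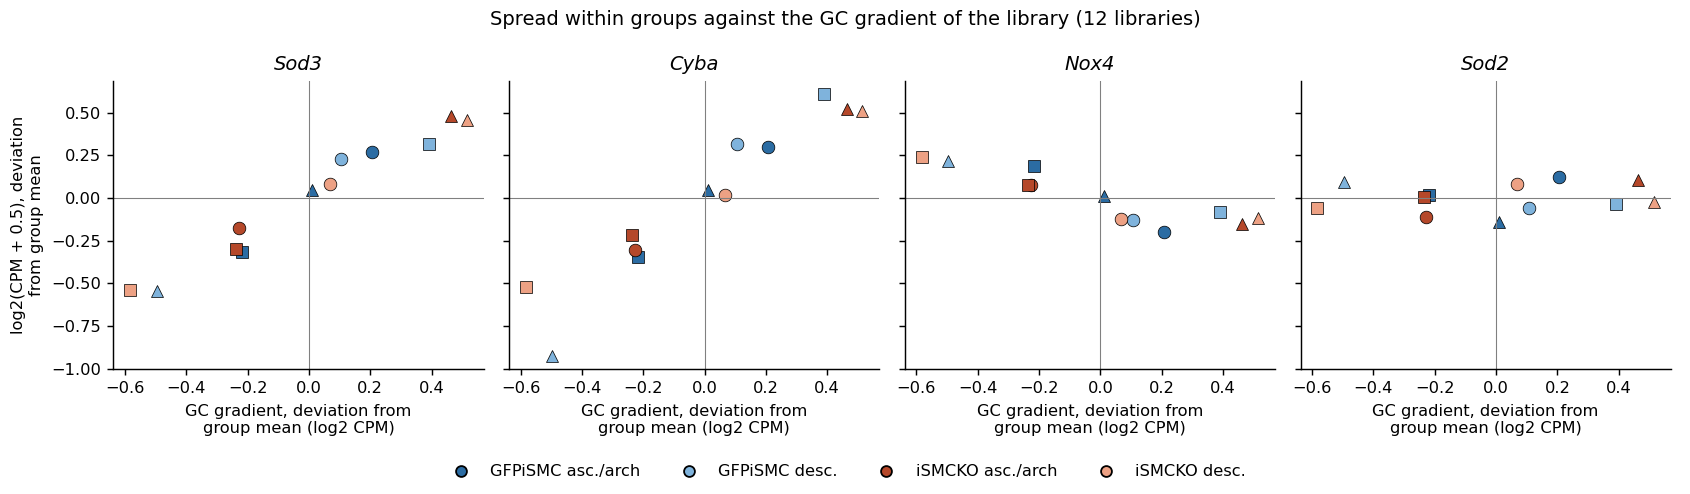
Deviation of log2(CPM + 0.5) from the group mean (vertical axis) against the deviation of the library's GC gradient from its group mean (horizontal axis) for *Sod3*, *Cyba*, *Nox4*, and *Sod2*, 12 libraries coloured by group with symbols for replicates. *Sod3* and *Cyba* rise with the gradient (r of 0.983 and 0.954), *Nox4* falls (r of −0.89), and *Sod2* shows little relation (r of 0.164).

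*Sod1*, the cytosolic enzyme, and *Sod2*, the mitochondrial enzyme, did not pass the threshold between genotypes. *Sod1* was at 88.8 to 112 CPM in GFPiSMC (median 103) and at 90.3 to 135 CPM in Tgfbr1/2iSMCKO SMCs (median 114), and differed by 0.18 on the log2 scale (SE 0.13, edgeR adjusted p = 0.57). *Sod2* was at 124 to 162 CPM (median 147) and at 150 to 174 CPM (median 161), and differed by 0.17 (SE 0.09, adjusted p = 0.419). For both genes the 2 sets of 6 libraries overlapped. In the ascending aorta *Sod2* was at 124 to 149 CPM in GFPiSMC and 150 to 174 CPM in Tgfbr1/2iSMCKO libraries (log2 0.24, SE 0.13, edgeR adjusted p = 0.542). In the descending aorta it was at 146 to 162 and 155 to 172 CPM. *Sod2* had the smallest spread within groups of the 10 genes, an SD of 0.10 on the log2(CPM + 0.5) scale against 0.43 for *Sod3*.

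Per kilobase of exon, *Sod3* made up most of the superoxide dismutase transcripts in all libraries. Its level was 857 CPM per kb (median of 6, range 513 to 985) in GFPiSMC and 353 CPM per kb (179 to 596) in Tgfbr1/2iSMCKO SMCs. *Sod1* was at 26.0 and 28.7 CPM per kb and *Sod2* at 14.7 and 16.1 CPM per kb in the same order of genotypes (medians). The share of *Sod3* in the sum of the 3 genes per length was 92.5% to 96.0% (median 95.5%) in GFPiSMC and 82.4% to 93.0% (median 88.4%) in Tgfbr1/2iSMCKO libraries, so the ranges overlapped.

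*Cyba*, the p22phox partner of NOX4, did not pass the threshold. It was at 121, 76.9, and 101 CPM in ascending and at 154, 189, and 65.2 CPM in descending GFPiSMC libraries. In Tgfbr1/2iSMCKO SMCs it was at 105, 112, and 188 CPM in the ascending and at 115, 78.9, and 162 CPM in the descending segment. The genotypes overlapped over nearly the whole range, and the log2 fold change was 0.12 (SE 0.27, edgeR adjusted p = 0.915). The ratio of *Nox4* to *Cyba* per kilobase of exon was 0.416 to 1.49 (median 0.748) in GFPiSMC and 0.0924 to 0.28 (median 0.165) in Tgfbr1/2iSMCKO libraries, without overlap. With the length of the longest transcript in place of all exons, the medians were 1.16 and 0.256, so which of the genes was the more abundant in GFPiSMC SMCs depended on the length used.

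*Cybb*, the phagocyte oxidase, was close to the limit of detection, with 0 to 12 counts per library. It was at 0.23 to 0.44 CPM in GFPiSMC SMCs and at 0 to 0.454 CPM in Tgfbr1/2iSMCKO SMCs, where the library with 0 counts was descending replicate 3, which allows up to 0.101 CPM (3 counts, counting error only). The log2 fold change of −0.47 had an SE of 0.65 (edgeR adjusted p = 0.834). Macrophage markers, which mark a main cell type with this oxidase, summed to 8.76 to 21.2 CPM in GFPiSMC and 15.1 to 30.4 CPM in Tgfbr1/2iSMCKO libraries. Of the 10 that could be tested 0 passed, against 5.03% of all genes. Their median log2 fold change was 0.55 (0.04 over all genes), and 3 had an unadjusted p under 0.05 by edgeR. The 5 neutrophil markers summed to 0.351 to 1.43 CPM in GFPiSMC and 0.226 to 1.06 CPM in Tgfbr1/2iSMCKO libraries.

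*Cat* and *Gpx3*, the peroxide-removing enzymes of the set, did not pass. *Cat* was at 138 to 166 CPM in GFPiSMC and 146 to 187 CPM in Tgfbr1/2iSMCKO SMCs (log2 fold change 0.14, SE 0.10, edgeR adjusted p = 0.572). *Gpx3* varied most of the 10 genes within groups (SD of 0.78 on the log2 scale), at 3.48, 3.36, and 14.8 CPM in ascending and 7.40, 16.7, and 18.8 CPM in descending GFPiSMC libraries. In Tgfbr1/2iSMCKO SMCs it was at 6.49, 9.07, and 5.77 CPM in the ascending and at 12.0, 7.92, and 23.0 CPM in the descending segment. The log2 fold change of *Gpx3* was −0.01 (SE 0.40, edgeR adjusted p = 0.996), and in both genotypes the descending mean was higher without passing the threshold (log2 0.99 in GFPiSMC and 1.01 in Tgfbr1/2iSMCKO SMCs, SE 0.59 each).

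*Nqo1*, the NRF2 target that reduces quinones, had the smallest p of the genes that did not pass. It was at 94.0, 89.9, and 116 CPM in ascending and at 74.5, 67.2, and 92.6 CPM in descending GFPiSMC libraries. In Tgfbr1/2iSMCKO SMCs it was at 115, 124, and 116 CPM and at 110, 125, and 101 CPM in the same segments. In the descending aorta all 3 Tgfbr1/2iSMCKO libraries lay above all 3 GFPiSMC libraries, as did 7.19% of all genes, and in the ascending aorta the genotypes overlapped. The log2 fold change was 0.38 (SE 0.12, edgeR adjusted p = 0.098), and it passed with DESeq2 (0.39, adjusted p = 0.0339), with scaling by library size only (0.50, adjusted p = 0.0392), and with the GC gradient as a covariate (0.42, adjusted p = 0.00884), but not with counts summed per mouse (adjusted p = 0.368).

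*Hmox1*, which breaks down heme, was low, at 1.10 to 4.00 CPM in GFPiSMC and 1.11 to 4.62 CPM in Tgfbr1/2iSMCKO SMCs. The genotypes overlapped over most of this range, and the log2 difference was 0.56 (SE 0.39, edgeR adjusted p = 0.578). None of the 10 genes differed between the segments past the threshold in either genotype, against 0.376% of all genes in GFPiSMC and 0.112% in Tgfbr1/2iSMCKO SMCs. *Sod3* differed by −0.10 (SE 0.29) in GFPiSMC and −0.70 (SE 0.30) in Tgfbr1/2iSMCKO SMCs, descending over ascending. With the GC gradient as a covariate it passed, at −0.45 (SE 0.07, edgeR adjusted p = 0.0221) and −0.65 (SE 0.07, adjusted p = 0.00243), respectively. Of 17 alternatives, this fit, chosen after the data were seen, was the only 1 that gave either call. The gradient itself differed between segments, with medians of −1.23 ascending and −0.80 descending in GFPiSMC libraries. In Tgfbr1/2iSMCKO libraries they were −1.17 and −0.94, so the fit cannot fully separate segment from gradient. For the difference of the genotype effect between segments, edgeR called 0 of the 10 and 0 (0%) of all 22320 genes (659 with an unadjusted p under 0.05), and DESeq2 called 8.

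The wider redox system was read in 6 lists of 122 genes, of which 109 were tested. In them 11 genes changed between genotypes, 5 higher and 6 lower in Tgfbr1/2iSMCKO SMCs, which is 10.1% against 5.03% of all genes. The lists too were chosen with earlier results of these data known, so this share is a description only. Of these 11 calls only *Chac1* passed with counts summed per mouse (edgeR adjusted p = 0.0406), and 10 of the 11 did when the GC gradient was added to that fit. With the trend over GC content taken out of each library, 5 of the 11 passed in the 12-library fit (edgeR adjusted p up to 0.156). With a mouse left out, 4 to 8 of the 11 passed. The lists therefore rest on the 12-library comparison, in which both libraries of a mouse count separately.

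Among 18 tested NADPH oxidase partners and other oxidant sources, 1 gene was lower and 0 were higher, with a median log2 fold change of −0.01 (0.04 over all genes). *Nox1*, whose product is a homolog of NOX2, was at 2.38 to 4.50 CPM in GFPiSMC SMCs and differed by 0.01 on the log2 scale (SE 0.26, edgeR adjusted p = 0.995). *Poldip2*, a p22phox-binding activator of NOX4, differed by 0.27 (SE 0.29, adjusted p = 0.771), and *Rac1*, the small GTPase of NOX1 and NOX2, by −0.04 (SE 0.15, adjusted p = 0.945).

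In the glutathione system, 3 of 25 tested genes were higher and 2 were lower (median log2 fold change 0.17). Of all genes tested, 5.03% were called and 3.23% were called lower. *Gpx1*, the main cytosolic glutathione peroxidase, was at 167 to 325 CPM (median 248) in GFPiSMC and 259 to 563 CPM (median 466) in Tgfbr1/2iSMCKO SMCs (log2 0.84, SE 0.20, edgeR adjusted p = 0.0283). The glutathione transferase genes *Gstm1* (log2 0.50, SE 0.10, adjusted p = 0.012) and *Gstk1* (0.60, SE 0.14, adjusted p = 0.029) rose. *Gstk1* was at 44.4 to 78.4 CPM in GFPiSMC and 87.0 to 108 CPM in Tgfbr1/2iSMCKO SMCs. *Gstm1* has close copies in its gene family, between which counts can be split. *Gpx7*, a peroxidase of the endoplasmic reticulum, fell from 88.5 to 138 CPM in GFPiSMC to 48.3 to 89.1 CPM in Tgfbr1/2iSMCKO SMCs (−0.70, SE 0.13, adjusted p = 0.00646). *Chac1*, which breaks down glutathione, fell by 2.02 on the log2 scale (SE 0.34, adjusted p = 0.00282), from 1.17 to 3.61 CPM to 0.291 to 0.961 CPM. Its genotypes did not overlap, which held for 2.89% of all genes in this direction.

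The counts of the other lists stand beside 5.03% of all genes tested. Of 8 tested genes of copper supply and metallothioneins, 1 was higher, the metallothionein gene *Mt2* (log2 0.88, SE 0.18, edgeR adjusted p = 0.0118). Of 22 thioredoxin and peroxiredoxin genes, 1 was lower, *Msrb3*, which repairs oxidized methionine (−0.36, SE 0.08, adjusted p = 0.0251). Of 22 NRF2 regulators and genes of NADPH supply, 1 was higher and 2 were lower. The carbonyl reductase gene *Cbr1* rose (0.75, SE 0.18, adjusted p = 0.025), while *Mafk*, a small Maf partner of NRF2 (−1.04, SE 0.24, adjusted p = 0.0226), and *Me1*, which makes NADPH (−0.63, SE 0.11, adjusted p = 0.0049), fell. *Nfe2l2*, the gene of NRF2 itself, differed by 0.22 (SE 0.14, adjusted p = 0.519). Of 14 genes of heme breakdown and iron storage 0 changed by edgeR, with 3 at an unadjusted p under 0.05.

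**Figure D4:**
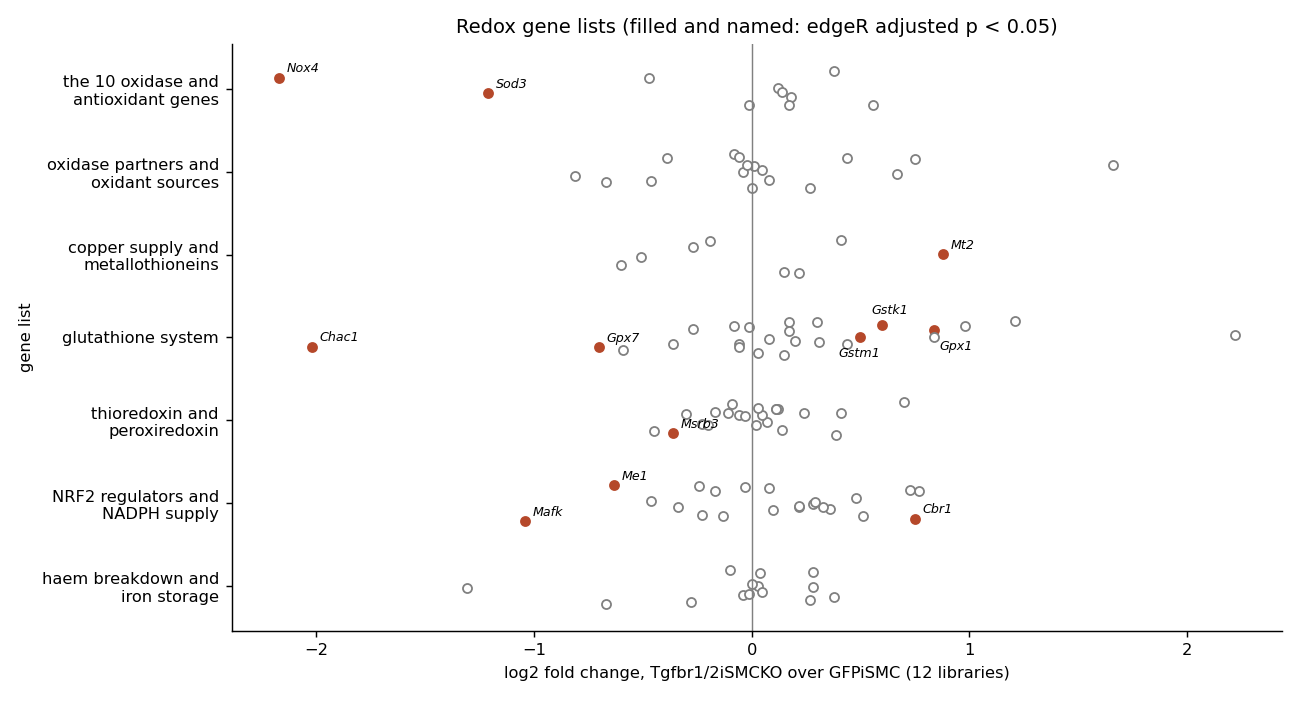
Log2 fold change between Tgfbr1/2iSMCKO and GFPiSMC SMCs over 12 libraries (horizontal axis) of the tested genes of the 10-gene set and of the 6 redox lists (rows; 1 gene is not shown), with filled, named points for an edgeR adjusted p under 0.05 and vertical jitter without meaning. *Nox4* is the lowest point of all rows at −2.17, and each list has at most 5 filled points.

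Between segments, *Mgst1*, a membrane-bound glutathione transferase, was the one gene of the redox lists that passed. It fell from 58.8 to 74.6 CPM in ascending to 18.4 to 32.6 CPM in descending GFPiSMC libraries (log2 −1.47, SE 0.25, edgeR adjusted p = 0.0255), and in Tgfbr1/2iSMCKO SMCs the difference was −1.02 (SE 0.25, adjusted p = 0.287). The fibroblast markers *Lum* (−3.89, SE 0.60, adjusted p = 0.0146) and *Scara5* (−2.62, SE 0.48, adjusted p = 0.038) passed in the same direction in GFPiSMC SMCs, as was *Lum* (−4.73, SE 0.62, adjusted p = 0.0104) in Tgfbr1/2iSMCKO SMCs. Of 17 alternatives, the GFPiSMC call of *Mgst1* was lost in 8 (adjusted p up to 0.306), that of *Scara5* in 8 (up to 0.574), and that of *Lum* in 3 (up to 0.208), all with the same sign. The part of the fibroblast markers in the *Mgst1* result was not tested.

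Marker lists of other kinds were also compared between genotypes, with counts that stand beside 5.03% of all genes tested. Of 12 genes of cell isolation stress 1 fell, the heat shock cochaperone gene *Dnajb1* (log2 −1.63, SE 0.36, edgeR adjusted p = 0.0181), and the list summed to 918 to 2531 CPM in GFPiSMC and 511 to 1531 CPM in Tgfbr1/2iSMCKO libraries (median log2 fold change −0.79). In each of the 4 groups *Hspa1a* of this list was highest in replicate 2. It was there at 359 and 338 CPM in GFPiSMC and 136 and 106 CPM in Tgfbr1/2iSMCKO libraries (ascending before descending). In replicates 1 and 3 it was at 90.2 to 97.0 and 21.4 to 27.5 CPM, respectively. *Atf3* likewise peaked in replicate 2, while *Fos* did not in every group. Of 8 endothelial markers 1 passed, *Cdh5* (2.97, SE 0.70, edgeR adjusted p = 0.025), at 0 to 0.513 and 0.497 to 2.71 CPM (0 to 14 and 12 to 79 counts). The call of *Cdh5* was lost in 6 of 17 alternatives (adjusted p up to 0.12) and that of *Dnajb1* in 5 of 18 (up to 0.131). The endothelial list summed to 68.0 to 101 and 55.6 to 109 CPM, most of it *Pecam1* (61.6 to 95.7 and 44.4 to 87.5 CPM). Its median log2 fold change was 0.99 (0.04 over all genes), and only *Pecam1* (−0.13, SE 0.16) had a negative one. The part of the stress genes or the endothelial markers in the differences of *Nox4*, *Sod3*, and the redox lists was not tested.

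The genes most like *Nox4* over the 12 libraries, by Pearson's r of log2 CPM among 12282 genes with a mean log2 CPM above 1, were *Ext1*, a heparan sulfate polymerase gene (r of 0.994), the *Pcna* pseudogene *Pcna-ps2* (0.992), and *Col5a2*, a chain of type V collagen (0.987). In all, 64 genes had r above 0.95. The libraries fall into 2 clusters for *Nox4*, so these values include the gap between genotypes. Within the 6 GFPiSMC libraries r was 0.632 for *Ext1*, 0.296 for *Pcna-ps2*, and 0.319 for *Col5a2*, and within the 6 Tgfbr1/2iSMCKO libraries it was 0.672, 0.811, and 0.179. Counts of *Pcna-ps2* can hold reads of its parent gene.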

How the data were processed

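Bulk RNA-seq of 12 libraries of sorted SMCs was analysed, and other experiments of the study were not analysed here. Per the study's methods, the authors trimmed reads with Trim Galore, aligned them with HISAT2 to GRCm38, and quantified GENCODE M15 genes with StringTie. The authors deposited whole-number counts for 52636 genes without normalization, and the step from coverage to counts is not given in the sources used here. Counts of 2 (32279) exceeded counts of 1 (22574), an excess that a plain tally of fragments would not be likely to give. Symbols and coordinates came from GENCODE M21 for 52489 genes, and promoter sequences from RefSeq (8 of 10 genes matched).

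Libraries were grouped by genotype and segment from the labels. edgeR 4.0.16 in R 4.3.3 was used with filterByExpr, TMM factors, and the quasi-likelihood test, with segment and genotype over both segments or with 4 group means for the other comparisons, and Benjamini-Hochberg adjustment over 22320 genes. The common biological coefficient of variation was 0.442. Each SE is the size of the log2 change divided by the root of its F statistic. An exact permutation test of 3 mice against 3 cannot give a two-sided p below 0.1. Replicates are separate mice, and the 2 libraries that share a line and a number were treated as segments of one mouse.

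Alternatives were DESeq2 1.42.0, limma 3.58.1 voom with a random effect for the mouse, RLE factors or library size only, any gene with 1 count kept, a minimum mean of 50 counts, blocks, segment left out, counts summed per animal, only the 6 libraries compared, and each mouse left out in turn. GC corrections were added after the data were seen. The steps were tested on simulated data. The 10 genes, the lists, and the naming rule (all 10 genes, list genes with an adjusted p under 0.05, the deleted receptors, and the 3 genes most like *Nox4*) were chosen with earlier results of these data known. A few further list genes (*Nox1*, *Noxo1*, *Cyb561*, *Poldip2*, *Rac1*, and *Nfe2l2*) were named after their values were seen. Values of some list genes are not reported here. Plots were made in Python 3.11.15 (matplotlib 3.10.9).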

Additional observations from a re-analysis of the deposited data

How the results depend on the processing

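Over 18 alternatives, the *Nox4* log2 fold change stayed between −2.25 and −2.04 with adjusted p values from 5.02e-60 to 0.000241, and that of *Sod3* stayed between −1.48 and −1.02 with adjusted p values up to 0.0558. Scaling by library size only moved the median log2 fold change of all genes from 0.04 to 0.16.

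Over both segments 1123 genes were called, against 2034 with DESeq2, 2353 with the GC gradient as a covariate, 451 with counts summed per animal, and 622 to 1066 with one mouse left out. Of the 10 genes 2 were called, against 1 with counts summed per animal and 1 to 2 with a mouse left out. In the ascending aorta 315 genes were called, against 909 with DESeq2, 806 with the GC covariate, and 128 to 240 with a mouse left out, and 2 of the 10 genes with the GC covariate or the GC offset. In the descending aorta 385 genes were called, against 907 with DESeq2, 1049 with the GC covariate, 150 (1 of the 10 genes) with only the 6 libraries compared, and 136 to 330 with a mouse left out (1 to 2 of the 10 genes). *Sod3* there lost its call without GFPiSMC replicate 1 (adjusted p = 0.15) or 2 (0.129) and without Tgfbr1/2iSMCKO replicate 1 (0.145) or 2 (0.0852), all by edgeR. Between segments in GFPiSMC SMCs 84 genes were called, against 286 with DESeq2, 131 with the GC covariate (1 of the 10 genes), and 6 to 86 with a mouse left out. In Tgfbr1/2iSMCKO SMCs 25 were called, against 165 with DESeq2, 71 with the GC covariate (1 of the 10 genes), 49 with limma-voom, 47 without the filter, 4 with only the 6 libraries, and 5 to 19 with a mouse left out. For the difference of effects 0 were called, against 8 with DESeq2, 1 without the filter, and 0 to 3 with a mouse left out. The cause of these shifts was not tested.

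Signs turned for these values, none of which passed the threshold under the alternatives named. *Cyba* was at −0.03 with counts summed per animal and the GC gradient, and *Gpx3* at 0.11 with library size only, 0.13 with limma-voom, and 0.00 without the filter. *Nox4* between segments in GFPiSMC SMCs was at 0.07 with the GC covariate and 0.03 with the offset, and for the difference of effects at −0.13 and −0.11. With a mouse left out, the ranges over both segments were −0.19 to 0.30 for *Cyba*, −0.33 to 0.64 for *Gpx3*, and 0.00 to 0.20 for *Tgfbr1*. Between segments they were −0.16 to 0.09 for *Nox4* and −0.40 to 0.14 for *Sod3* in GFPiSMC and −0.13 to 0.06 for *Nox4* in Tgfbr1/2iSMCKO SMCs, and for the difference of effects −0.12 to 0.12 for *Nox4*.

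Same-numbered libraries of the genotypes did not deviate together as a whole (correlations from −0.527 to 0.216 over 9210 genes). This measure cannot exclude a pairing by number, since it was also low for some libraries of one mouse. Some stress genes, such as *Hspa1a*, were highest in replicate 2 in each of the 4 groups, and the cause was not tested. With the replicate block, the log2 fold change of *Sod3* was −1.24 (edgeR adjusted p = 0.00915) and that of *Gpx3* 0.15. For libraries of one mouse the correlation ran from −0.242 to 0.661. *Cybb* was limited by depth, at 0 to 12 counts per library.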
